A study of Mus musculus with 37 samples.

Results

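Immediate early genes are switched on within minutes of a stimulus without any need for newly made protein, and the 10 described here are Fos, Fosb, Jun, Junb, Egr1, Atf3, Ier2, Nr4a1, Myc and Btg2. They were taken by gene name from a table of 56748 genes measured in 37 mouse left ventricles (LV), and each name matched 1 row. All 10 exceeded the level needed for testing, which 16579 genes reached (at least 0.5 FPKM, fragments scaled for gene length and sequencing depth, in at least 4 libraries).

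The animals were male and female C57BL/6J mice aged 8 to 10 weeks. Naïve mice (n = 5) received isoflurane only, with no intubation and no injection. Adr mice were anaesthetised, intubated and ventilated, given saline into the LV cavity and then adrenaline. Arrest mice had the same anaesthesia and ventilation, were injected with KCl into the LV, spent 8 min in asystole, and were revived with adrenaline and chest compressions. LV was collected 0.5, 1, 3 or 7 d later (n = 4 in each of the 8 groups), after the blood was flushed out and the apex discarded. Every Adr and Arrest mouse thus shared anaesthesia, ventilation, a cardiac puncture and adrenaline, which the Naïve mice apart from anaesthesia did not have. In whole tissue, fewer cells of a type and less RNA per cell cannot be told apart.

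A stimulus such as stretch, a growth factor, adrenergic signalling or reperfusion is carried by MAP kinases, calcium and cyclic AMP to factors already bound at these genes, chiefly SRF with its partners and CREB. Most of the members encode transcription factors: FOS, FOSB, JUN and JUNB pair into AP-1, ATF3 belongs to the same leucine-zipper class, EGR1 is a zinc-finger factor and NR4A1 is an orphan nuclear receptor. MYC drives growth programmes, IER2 is a nuclear protein and BTG2 is an antiproliferative protein that also promotes mRNA decay. Their transcripts are short lived, and in heart they are known to rise after ischaemia, haemodynamic load and tissue handling.

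Promoter windows of 7 of the 10 members were searched, with sequence from the RefSeq table (GRCm38.p6). Each window ran from 250 bases before to 50 after the start. Of those 7, 6 (all but Jun) held the letters TGACG on either strand, the half-site of the cyclic AMP response element. The same letters occurred in 20.8% of the 32817 promoters of the table. There were 4 matches in the Nr4a1 window, 2 in Fos, 2 in Btg2, and 1 each in Fosb, Junb and Atf3. The full element TGACGTCA was present in Btg2 alone, against 1.79% of all promoters, and 1 of its 2 half-site matches is the forward and the other the reverse reading of that element. Neither the CArG box bound by SRF (1.63% of all promoters) nor the AP-1 site TGANTCA (7.81%) was found in any of the 7 windows. Egr1, Ier2 and Myc were not searched, so their absence here says nothing about their promoters. Bases further than 250 before the start were not searched either, so sites there are not covered. The windows of 4 genes are shown, the 3 with most matches and that of Junb, the member called in most comparisons. They are the 250 bases before the start, 5′ to 3′ along the gene, with half-site matches of either strand in capitals. Fos is at chr12:85473640-85473889 on the plus strand, Junb at chr8:84978749-84978998 on the minus strand, Nr4a1 at chr15:101266596-101266845 on the plus strand and Btg2 at chr1:134079156-134079405 on the minus strand.
Fos: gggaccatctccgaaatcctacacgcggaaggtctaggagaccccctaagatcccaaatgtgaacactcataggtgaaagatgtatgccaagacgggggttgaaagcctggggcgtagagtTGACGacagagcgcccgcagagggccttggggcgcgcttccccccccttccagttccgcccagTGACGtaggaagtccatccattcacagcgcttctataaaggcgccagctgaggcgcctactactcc
Junb: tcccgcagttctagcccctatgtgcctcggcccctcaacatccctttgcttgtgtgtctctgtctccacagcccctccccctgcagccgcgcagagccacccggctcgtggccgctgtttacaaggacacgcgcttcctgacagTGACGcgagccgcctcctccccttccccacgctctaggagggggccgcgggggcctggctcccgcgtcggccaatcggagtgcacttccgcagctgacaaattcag
Nr4a1: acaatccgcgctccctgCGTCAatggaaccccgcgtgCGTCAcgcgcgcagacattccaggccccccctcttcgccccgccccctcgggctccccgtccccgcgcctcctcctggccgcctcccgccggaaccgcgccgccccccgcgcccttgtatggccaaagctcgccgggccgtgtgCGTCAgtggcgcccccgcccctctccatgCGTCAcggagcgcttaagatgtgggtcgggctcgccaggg
Btg2: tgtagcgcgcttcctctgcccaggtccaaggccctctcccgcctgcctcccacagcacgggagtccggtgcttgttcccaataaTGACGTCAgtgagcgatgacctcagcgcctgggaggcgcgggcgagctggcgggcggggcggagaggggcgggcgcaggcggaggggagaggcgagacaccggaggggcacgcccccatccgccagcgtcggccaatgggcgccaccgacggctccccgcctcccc

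Libraries held 13.2 to 30.2 M fragments on genes, and the 8 cardiomyocyte markers were present in all 37. Adr 3 d replicate 3 stood apart, with 9.36% of its fragments on mitochondrial genes (20.8% to 30.9% in the others), a summed cardiomyocyte marker level of 3305 FPKM (7087 or more in the others) and a summed macrophage marker level of 2963 FPKM. A second split came from the labels. The descriptions carry a number whose meaning is not given, and the 8 libraries of day 1 fell into 2 runs, 70 to 73 (Arrest replicates 1, 2 and 3, and Adr replicate 1) and 95 to 102 (Arrest replicate 4, and Adr replicates 2, 3 and 4). The Naïve libraries were numbered 116 to 127, so against Naïve the low numbers and the condition cannot be told apart. The main day 1 differences are given with and without the libraries numbered 70 to 73.

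**Figure D1:**
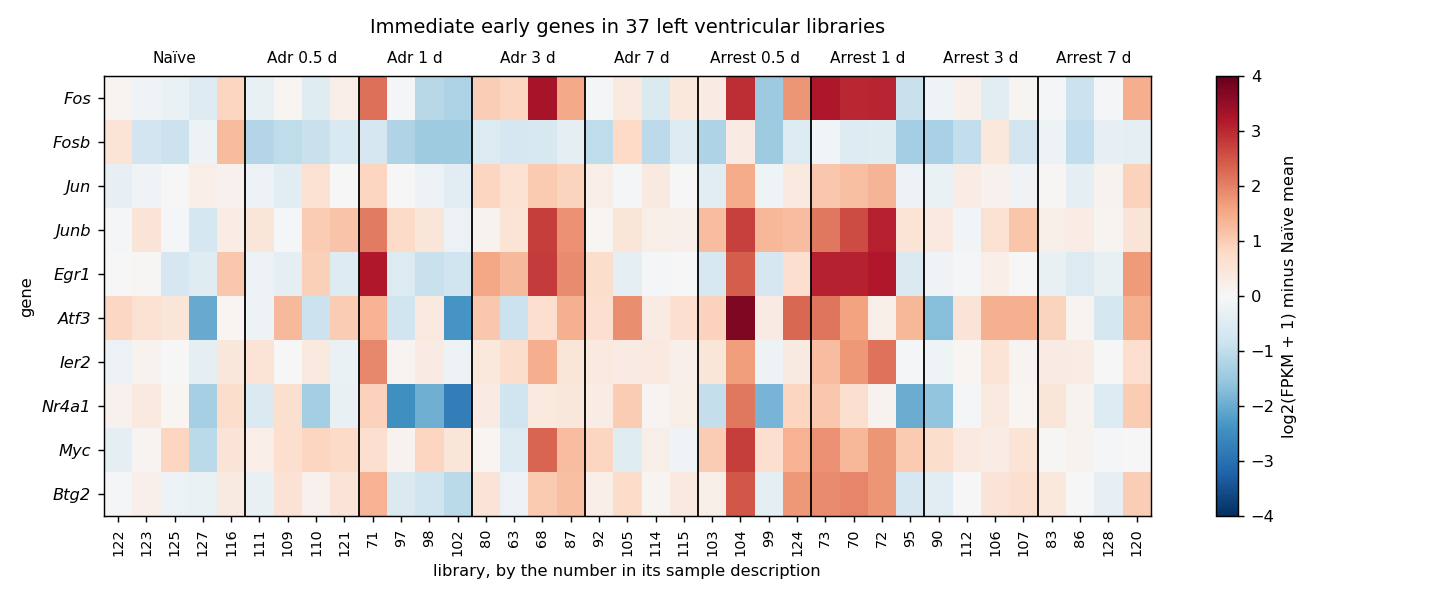
Each column is 1 of 37 libraries, labelled with the number in its description and ordered by group and replicate. Colour is the log2(FPKM + 1) level minus the Naïve mean, and Fos, Egr1 and Junb are red in the libraries numbered 70 to 73 and pale or blue in the other libraries of day 1.

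JUNB is the AP-1 partner that often opposes JUN, and its transcript (ENSMUSG00000052837, chromosome 8, 85701113 to 85705347 in the coordinates of the table) was the member called in most comparisons. Its level was 8.08, 12.6, 8.07, 4.86 and 10.6 FPKM in the 5 Naïve libraries, and 21.2, 62.6, 22.8 and 21.5 FPKM in the 4 Arrest 0.5 d libraries. At Arrest 1 d it was 40.3, 56.6, 81.2 and 12.9 FPKM. All 8 Arrest libraries of the first day lay above all 5 Naïve libraries, although replicate 4 at 1 d did so by a narrow margin (12.9 against 12.6 FPKM). The rise over Naïve was 1.64 on the log2(FPKM + 1) scale at 0.5 d (SE 0.46, limma adjusted p = 0.0448) and 2.10 at 1 d (SE 0.46, limma adjusted p = 0.00571). The two-sided exact permutation test gave p = 0.00794 for each, the smallest value possible with 4 against 5. Without replicate 2 at 0.5 d the difference there was 1.27 and no longer called (limma adjusted p = 0.218), and 7 of the other 8 libraries of these 2 groups also ended the call when left out, with differences of 1.46 to 1.77. At 1 d the call held without any single library of the 2 groups, but without the libraries numbered 70 to 73 the day 1 difference was 0.55 (SE 0.64, limma adjusted p = 0.915).

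In the separate mice of Arrest 3 d the level of Junb was 7.72 to 19.5 FPKM, and at Arrest 7 d it was 9.28 to 12.4 FPKM. The difference between Arrest 1 d and Arrest 7 d was 1.81 (SE 0.49, limma adjusted p = 0.0456; exact permutation p = 0.0286, the smallest possible with 4 against 4), and it was 0.26 without the libraries numbered 70 to 73. In the Adr arm the 4 libraries of 1 d read 38.7, 15.2, 12.1 and 7.08 FPKM, with the library numbered 71 the highest. At Adr 3 d the values were 9.55, 12.8, 63.9 and 32.5 FPKM, and the highest was replicate 3, the library that stood apart. Of the 10 members only Junb differed among the 9 groups as a whole (moderated F test of limma, adjusted p = 0.0398), where 3.89% of all genes were called.

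MYC, the growth regulator that dimerises with MAX, had the lowest level of the called members (ENSMUSG00000022346, chromosome 15, 61857240 to 61862223). In the Naïve libraries it read 0.611, 1.27, 2.86, 0 and 1.997 FPKM, the 0 being replicate 4, the library with the fewest genes above 0 (13475). Arrest 0.5 d gave 3.28, 13.5, 2.37 and 4.53 FPKM, and Arrest 1 d gave 6.55, 4.26, 6.21 and 3.36 FPKM. All 4 libraries at 1 d were above every Naïve library, whereas replicate 3 at 0.5 d was not. Myc rose by 1.46 over Naïve at 0.5 d (SE 0.41, limma adjusted p = 0.0434; exact permutation p = 0.0317) and by 1.49 at 1 d (SE 0.41, limma adjusted p = 0.024; exact permutation p = 0.0159). Without Naïve replicate 4 the differences were 1.19 and 1.22 and neither was called (limma adjusted p = 0.115 at 0.5 d and 0.0722 at 1 d). In all, leaving out 6 of the 9 libraries one at a time ended the call at 0.5 d, and 4 of the 9 did so at 1 d. The day 1 difference was 1.04 (limma adjusted p = 0.795) without the libraries numbered 70 to 73, and the 0.5 d difference was 1.03 and not called without Arrest replicate 2 (limma adjusted p = 0.241). Arrest 7 d lay between 1.06 and 1.33 FPKM, inside the Naïve range.

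IER2 is a small nuclear protein of the early response (ENSMUSG00000053560, chromosome 8, 85387960 to 85389483). Its transcript read 13.4, 17.4, 16.2, 11.9 and 22.2 FPKM in Naïve and 38.9, 55.6, 75.1 and 14.9 FPKM at Arrest 1 d. Of these 4 Arrest libraries, 3 were above all Naïve libraries and the library numbered 95 was inside their range. The rise was 1.27 (SE 0.37, limma adjusted p = 0.0313; exact permutation p = 0.0476). It was -0.08 without the libraries numbered 70 to 73, and the call was lost when any one of Arrest 1 d replicates 1, 2 or 3 was left out (0.97 to 1.28, limma adjusted p = 0.0726 to 0.17). It was also lost without Naïve replicate 1 or 4 (limma adjusted p = 0.0652 and 0.0665). Adr 1 d replicate 1, numbered 71, reached 63.1 FPKM while the other 3 Adr libraries of that day read 13.5 to 19.9 FPKM.

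**Figure D2:**
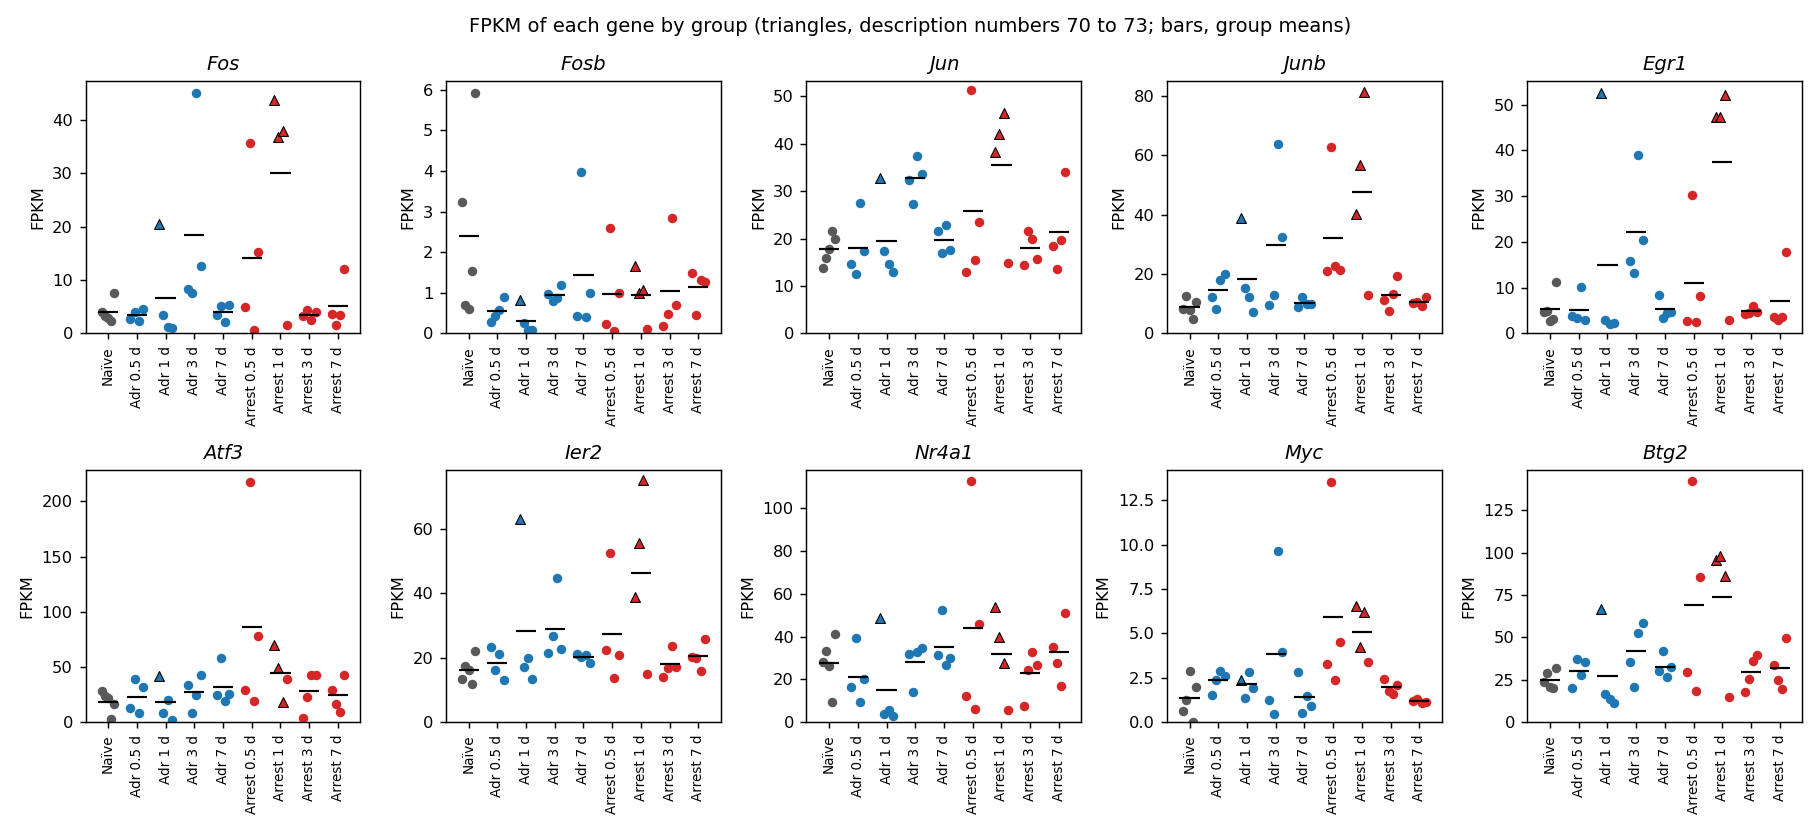
Each panel shows 1 gene, with a point for each library, in FPKM from 0, by group (Naïve n = 5, others n = 4); bars are group means and triangles are the libraries numbered 70 to 73. The triangles of Fos, Jun, Egr1 and Btg2 lie above all other libraries of day 1, and in Myc the triangle of Adr does not.

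These were the only calls among the members against Naïve. At Arrest 0.5 d 2 of 10 members were called higher, where 1.75% of all genes were called higher and 3.2% were called in all. At Arrest 1 d 3 of 10 were called higher, where 3.89% of all genes were called higher and 7.11% in all. No member was called at Adr 0.5 d (0.187% of all genes called), Adr 1 d (0.627%), Adr 3 d (0%), Adr 7 d (0%), Arrest 3 d (0.139%) or Arrest 7 d (0%). By the unadjusted limma p at 0.05, the members passing were 1, 2, 5 and 0 in the 4 Adr groups in order of time, and 3, 7, 0 and 0 in the 4 Arrest groups. The shares of all genes at that level were 14%, 14.7%, 13.9% and 6.17% in the Adr groups and 18.1%, 21.7%, 13.7% and 5.14% in the Arrest groups, in the same order. Without the libraries numbered 70 to 73 the Arrest 1 d group holds replicate 4 alone, which the fit assumes to vary like the other groups, and then 0 members were called, 2 passed at the unadjusted level and the median difference moved from 1.30 to -0.41. All 8 intervened groups together gave 0 calls against Naïve (1.97% of all genes), and 3 members passed at the unadjusted level (18.3% of all genes).

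The 7 members that were not called are described by role. FOS (ENSMUSG00000021250, chromosome 12, 85520664 to 85524047), which pairs with JUN proteins, was split within groups. Its level was 4.05, 3.19, 2.88, 2.28 and 7.62 FPKM in Naïve and 43.6, 36.7, 37.9 and 1.55 FPKM at Arrest 1 d. The 3 libraries numbered 70 to 73 stood above every Naïve library and the fourth stood below every one. Adr 1 d repeated the split, with 20.5 FPKM in the library numbered 71 and 3.54, 1.19 and 1.01 FPKM in the other 3. The difference of Arrest 1 d from Naïve was 2.10 (SE 0.75, limma adjusted p = 0.0801; exact permutation p = 0.0794), and it was -0.88 without the libraries numbered 70 to 73. At Arrest 0.5 d the libraries read 4.98, 35.6, 0.739 and 15.2 FPKM, from below to above the Naïve range.

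JUN (ENSMUSG00000052684, chromosome 4, 94937271 to 94940459), the partner of FOS, had a higher and steadier baseline. It read 13.8, 16.0, 17.9, 21.6 and 19.8 FPKM in Naïve, against 38.3, 42.1, 46.4 and 14.8 FPKM at Arrest 1 d. The difference was 0.85 (SE 0.32, limma adjusted p = 0.097; exact permutation p = 0.0714), and it was -0.24 without the libraries numbered 70 to 73. Adr 1 d gave 32.8 FPKM in the library numbered 71, above every Naïve library, and 17.4, 14.7 and 12.9 FPKM in the others.

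FOSB (ENSMUSG00000003545, chromosome 7, 19036621 to 19043976) is the member whose highest group mean was Naïve. The 5 Naïve libraries read 3.22, 0.696, 0.609, 1.53 and 5.92 FPKM, so replicates 1 and 5 stood above the rest. Adr 1 d read 0.828, 0.259, 0.0795 and 0.087 FPKM, with replicates 3 and 4 resting on 8 and 14 fragments. The Adr 1 d difference from Naïve was -1.17 (SE 0.40, limma adjusted p = 0.146; exact permutation p = 0.0476), and it was -1.34 without the library numbered 71. No Fosb value of any Arrest or Adr library passed the 5.92 FPKM of Naïve replicate 5.

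EGR1 (ENSMUSG00000038418, chromosome 18, 34992876 to 34998037) followed Fos and Jun over libraries. Naïve gave 4.803, 5.01, 2.63, 3.17 and 11.3 FPKM, and Arrest 1 d gave 47.4, 47.4, 52.1 and 2.84 FPKM. The library of Adr 1 d numbered 71 read 52.6 FPKM, as high as the 3 Arrest libraries of the same run of numbers, while the other 3 Adr libraries read 2.95, 2.13 and 2.30 FPKM beside 2.84 FPKM for the Arrest library numbered 95. Within each run of numbers, then, the Arrest and Adr values of Egr1 lay side by side. Against Naïve the Arrest 1 d difference was 2.18 (SE 0.72, limma adjusted p = 0.0614; exact permutation p = 0.0794), and it was -0.59 without the libraries numbered 70 to 73.

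NR4A1 (ENSMUSG00000023034, chromosome 15, 101152150 to 101172676), a nuclear receptor with no known natural ligand, read 28.1, 33.3, 26.4, 9.35 and 41.1 FPKM in Naïve. In Adr 1 d the library numbered 71 read 48.5 FPKM and the other 3 read 3.72, 5.76 and 2.83 FPKM, all 3 below every Naïve library. The group difference was -1.56 (SE 0.69, limma adjusted p = 0.273; exact permutation p = 0.103), and it was -2.39 without the libraries numbered 70 to 73 (limma adjusted p = 0.0737). Arrest 1 d read 53.9, 39.8, 27.5 and 5.51 FPKM, again with the library numbered 95 the lowest.

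ATF3 (ENSMUSG00000026628, chromosome 1, 190902493 to 190950236), a repressor induced by many stresses, reached the highest single level of any member. It read 28.0, 24.1, 21.6, 3.04 and 16.2 FPKM in Naïve and 29.5, 218, 19.4 and 78.5 FPKM at Arrest 0.5 d, where replicate 3 lay inside the Naïve range. The difference was 1.82 (SE 0.74, limma adjusted p = 0.175; exact permutation p = 0.0714), and it was 1.17 without replicate 2. At Arrest 1 d it read 70.1, 48.8, 18.3 and 39.5 FPKM, and here the library numbered 95 was not the lowest. The day 1 difference of Atf3 from Naïve was 1.33 with the libraries numbered 70 to 73 and 1.31 without them (limma adjusted p = 0.301 and 0.877).

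BTG2 (ENSMUSG00000020423, chromosome 1, 134002908 to 134006858), an antiproliferative protein, read 23.5, 28.9, 21.0, 20.4 and 32.1 FPKM in Naïve. Arrest 1 d gave 95.5, 98.3, 86.4 and 15.04 FPKM, and Arrest 0.5 d gave 29.5, 142, 18.5 and 85.4 FPKM. Both groups had libraries above and below the whole Naïve range. The Arrest 1 d difference was 1.23 (SE 0.51, limma adjusted p = 0.136; exact permutation p = 0.103), and it was -0.68 without the libraries numbered 70 to 73. Of these uncalled members, 4 passed the threshold when Arrest 1 d replicate 4 was left out instead, with limma adjusted p of 0.00574 for Fos, 0.0147 for Jun, 0.00519 for Egr1 and 0.0148 for Btg2. In that fit 1247 of all 16579 genes tested were called. Without replicate 4 the Arrest 1 d group held only libraries numbered 70 to 73, and no Naïve library has such a number. Number and condition therefore cannot be told apart in that fit, which also lacks the lowest Arrest 1 d library of each of these 4 genes.

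**Figure D3:**
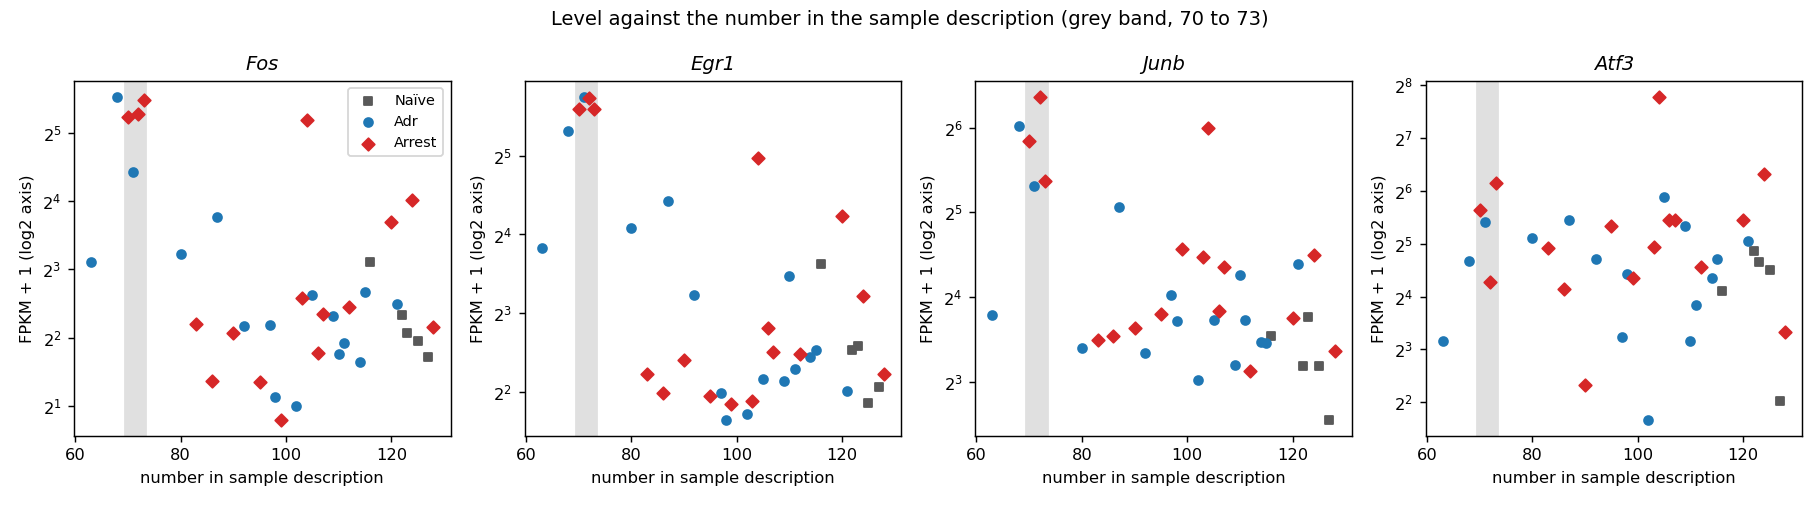
Fos, Egr1, Junb and Atf3 in 37 libraries, as FPKM + 1 on a log2 axis, against the number in the description, with Naïve, Adr and Arrest marked and the numbers 70 to 73 shaded. The shaded libraries are high for Fos, Egr1 and Junb in both arms, the Arrest 0.5 d library numbered 104 is high for all 4 genes, and Naïve libraries occur from 116 to 127.

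Arrest was compared with Adr at each time, as both arms shared anaesthesia, ventilation, cardiac puncture and adrenaline. KCl and chest compressions were given in Arrest alone, so this comparison cannot tell them apart from the asystole. No member was called at 0.5 d (0% of all genes), 1 d (0%), 3 d (0%) or 7 d (0.00603%). At 1 d all 10 members were higher in Arrest, by a median of 1.41, and 8 passed at an unadjusted limma p of 0.05, against 6.59% of all genes. The lowest adjusted p was 0.617 (Btg2, 1.49, 95% interval 0.41 to 2.58). Arrest held 3 and Adr 1 of the libraries numbered 70 to 73. Without those 4 libraries none of the 10 passed at the unadjusted level, 6 of 10 were above 0 and the median was 0.14, with an interval for Fos of -2.13 to 1.96. With a term for those numbers the median was 0.24 and none passed. At 3 d the order was the other way, with all 10 members lower in Arrest than in Adr by a median of 0.53, and 3 passed at the unadjusted level against 5.37% of all genes. Only 1 passed when Adr 3 d replicate 3 was left out. The Adr libraries of 3 d were numbered 63 to 87 and the Arrest libraries 90 to 112, so number and arm cannot be told apart there.

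**Figure D4:**
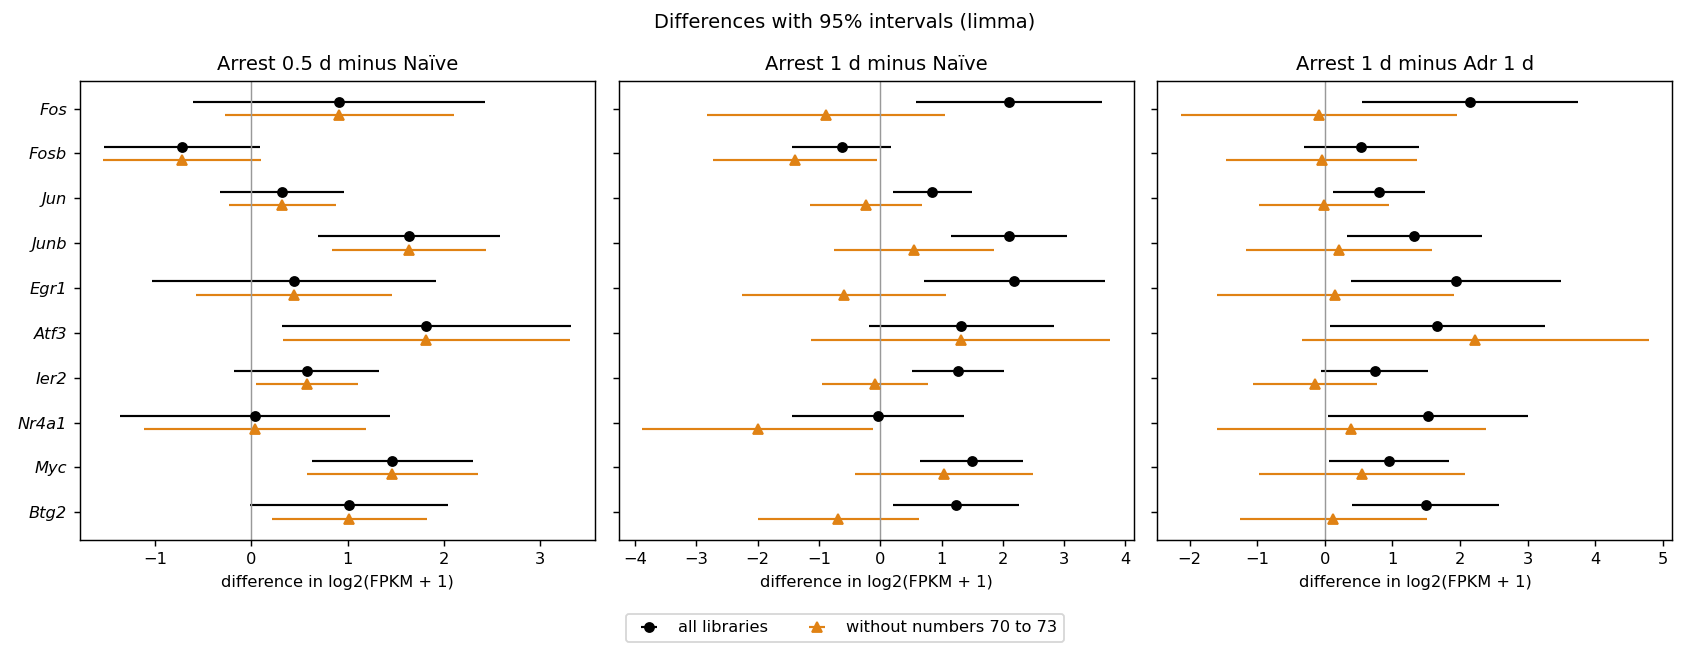
Differences in log2(FPKM + 1) with 95% intervals for the 10 genes in Arrest 0.5 d and 1 d against Naïve and Arrest 1 d against Adr 1 d, from all libraries (circles) and without the 4 libraries numbered 70 to 73 (triangles). At 0.5 d the estimates cannot move, as neither group compared holds a library numbered 70 to 73. At 1 d those of Fos, Jun, Egr1, Ier2 and Btg2 cross from above to below 0 against Naïve, with 1 Arrest library left.

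Adr 3 d was the group in which Jun and Egr1 were raised in every library. Jun read 32.4, 27.2, 37.5 and 33.7 FPKM there, all above the highest Naïve value of 21.6 FPKM. Egr1 read 15.9, 13.2, 38.9 and 20.4 FPKM, all above the highest Naïve value of 11.3 FPKM. In this group 1.29% of all genes lay wholly above Naïve. Its libraries were numbered 63 to 87 and the Naïve libraries 116 to 127, so number and group cannot be told apart. The limma differences were 0.85 for Jun (adjusted p = 0.232) and 1.88 for Egr1 (adjusted p = 0.242), so neither was called. Fos read 8.31, 7.61, 45.0 and 12.6 FPKM, with replicate 2 just below the highest Naïve library (7.62 FPKM). When replicate 3 was left out the members that passed at the unadjusted level went from 5 to 1. At Arrest 0.5 d the members lying wholly above Naïve were Junb alone (4.49% of all genes), and at Arrest 1 d they were Junb and Myc (5.69%).

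Over time within an arm, 1 call was made. In Adr no member was called between 0.5 and 1 d (0% of all genes), 0.5 and 7 d (0.00603%) or 1 and 7 d (0.0422%). In Arrest none was called between 0.5 and 1 d (0%) or 0.5 and 7 d (0.38%), and Junb alone was called between 1 and 7 d, where 1.88% of all genes were called and 1.14% were higher at 1 d. The difference between arms did not change detectably over time for any member, from 0.5 to 1 d (0%) or from 0.5 to 7 d (0%). Ordered by group mean, Arrest 1 d was the highest group for Fos, Jun, Junb, Egr1, Ier2 and Btg2, Arrest 0.5 d was the highest for Atf3, Nr4a1 and Myc, and Naïve was the highest for Fosb. Of the 80 pairs of neighbouring groups in these 10 orders, 0 differed by more than the larger of their SDs.

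The members varied widely between mice of one group. Among the 32 Adr and Arrest libraries, 9 had at least 7 of the 10 members above every Naïve library and 6 had none. At 9 members were Arrest 0.5 d replicate 2 and Arrest 1 d replicate 1. At 8 were Adr 1 d replicate 1, Arrest 1 d replicate 2 and Adr 3 d replicate 4, and at 7 were Arrest 0.5 d replicate 4, Arrest 1 d replicate 3, Adr 3 d replicate 3 and Arrest 7 d replicate 4. These libraries had 10.7% to 27.8% of all genes above every Naïve library, the same range as the 32 libraries together. Arrest 7 d replicate 4 had the smallest such share of the 32. It was far from the rest of its group in Egr1, at 17.8 FPKM against 2.95 to 3.67 FPKM.

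Correlations between the members over libraries were mostly positive. Pearson's r of log2(FPKM + 1) over the 37 libraries ran from -0.088 (Fosb and Myc) to 0.913 (Jun and Egr1) with a median of 0.589 over 45 pairs. With each group mean subtracted the median was 0.619, the highest value being 0.923 for Nr4a1 and Btg2. It was 0.566 without Adr 3 d replicate 3 and 0.543 in the 33 libraries left without the numbers 70 to 73. These points share depth, dissection and groups, and no r for pairs of other genes is set beside them. The values are given as a description. Fosb was the least alike, with r from -0.088 to 0.630. Atf3 was closest to Nr4a1 (0.751) and Btg2 (0.743).

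**Figure D5:**
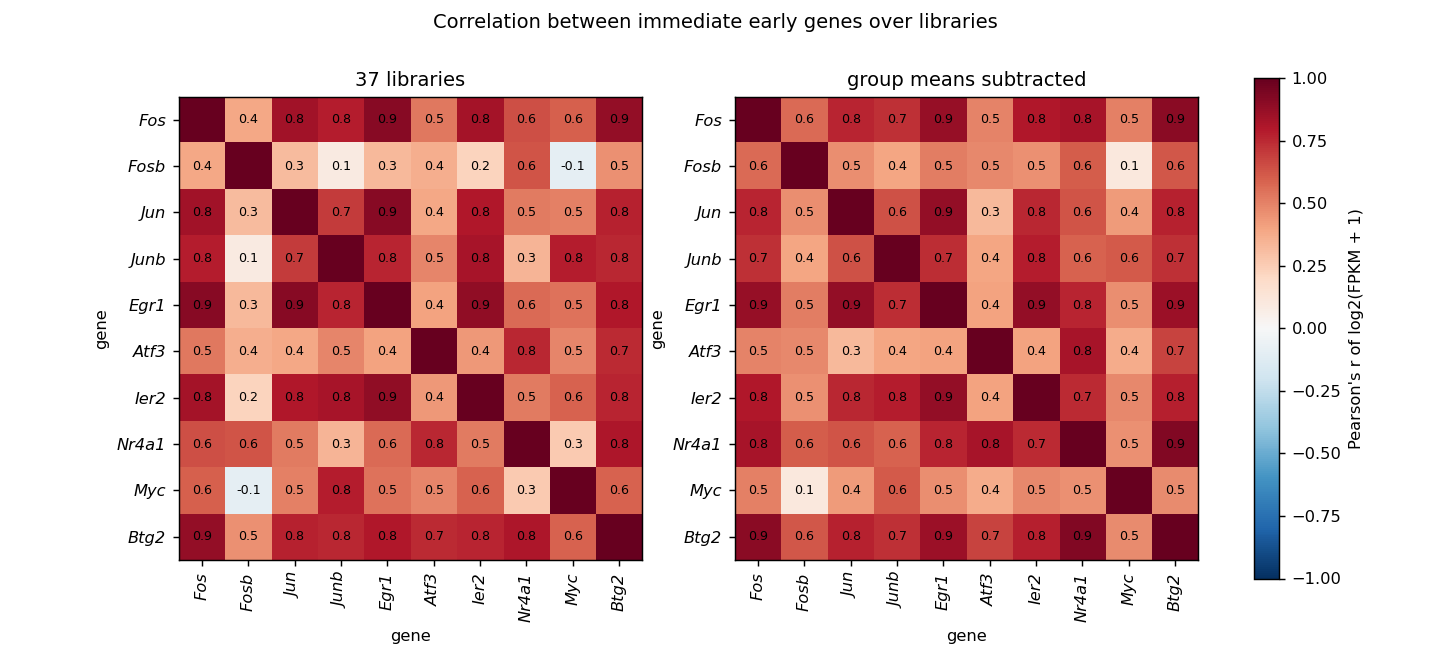
Pearson's r between the 10 genes over 37 libraries, for log2(FPKM + 1) (left) and after each group mean was subtracted (right), with r written in each square. Fos, Jun, Egr1, Ier2 and Btg2 form a block with values of 0.76 or more on the left, and Fosb stands out with low values.

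The nearest of the 10 to Fos, Jun and Ier2 was Egr1 (r = 0.91, 0.913 and 0.885). Genes other than the 10 were then ranked by r over the same 37 libraries. Among these, Ccn1, a matricellular protein, was the nearest to Fos (r = 0.896), Jun (0.925) and Egr1 (0.89). Dusp1, a phosphatase acting on MAP kinases, was the nearest to Ier2 (0.833), and Zfp36, an mRNA-decay protein, was the nearest to Junb (0.798). Adamts1, a secreted protease, was the nearest to Btg2 (0.825), level with the endothelial gene Apold1 (0.825). Irs2, an insulin receptor substrate, led for Nr4a1 (0.847), Dusp5 for Atf3 (0.798), Slc25a25 for Fosb (0.716) and Clec4d for Myc (0.837). This ranking includes Adr 3 d replicate 3, the library that stood apart, where Myc read 9.62 FPKM.

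Related genes were set in 7 lists beside the members. Against Naïve, calls in these lists occurred at Arrest 0.5 d and Arrest 1 d and in none of the other 6 groups, where at most 0.627% of all genes were called. At Arrest 0.5 d 3.2% of all genes were called and 1.75% were called higher. At Arrest 1 d these shares were 7.11% and 3.89%. No gene of these lists was called between Arrest and Adr at any time (at most 0.00603% of all genes). Of 13 tested AP-1 and leucine-zipper partners, 3 rose at 0.5 d (Maff, Cebpd and Atf4) and 3 at 1 d (Jund, Maff and Cebpd), with a list median of 0.51 and 0.34 against 0.03 for all genes at each time. Cebpd, which encodes an acute-phase transcription factor, went from 10.53 ± 1.94 FPKM in Naïve (SD, n = 5) to 30.4 ± 5.89 FPKM at 0.5 d (SD, n = 4), a rise of 1.44 (SE 0.34, limma adjusted p = 0.0173). At Adr 0.5 d Cebpd was 24.9 ± 14.1 FPKM. Of the 6 tested EGR and NR4A relatives, 0 were called. Nr4a3, the sister receptor of Nr4a1, had the lowest adjusted p in that list (0.0687 by limma), at 8.14 ± 2.80 FPKM in Naïve and 2.25 ± 1.95 FPKM at Arrest 1 d. At Adr 1 d Nr4a3 was lower still, at 1.34 ± 0.79 FPKM.

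Of 22 other immediate early genes, 2 rose at 0.5 d (Gadd45g and Socs3) and 3 at 1 d (those and Klf4), with list medians of 0.52 and 0.53. Of all genes, 1.75% and 3.89% were called higher at these times. Socs3, the feedback inhibitor of cytokine receptors, rose by 2.05 at 0.5 d (SE 0.42, limma adjusted p = 0.00741). It read 1.81 to 4.55 FPKM in Naïve and 10.03 to 25.7 FPKM in Arrest, with no overlap. At Arrest 0.5 d 4.49% of all genes lay wholly above Naïve. Of 10 feedback inhibitors, Dusp5 rose at 0.5 d, and Dusp5 and Zfp36 rose at 1 d (medians 0.16 and 0.41). Of 19 upstream kinases and factors 0 rose, and Mef2a and Mef2c, muscle transcription factors, fell at both times (medians -0.04 and -0.01). Mef2a fell by 0.60 at 1 d (SE 0.12, limma adjusted p = 0.00258). Its mean was 13.15 FPKM in Naïve, 8.28 FPKM at Arrest 1 d and 9.27 FPKM at Adr 1 d.

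Of 17 tested MYC partners and targets, Ccnd2, a D-type cyclin, fell at both times, and Max, the partner of MYC, rose at 1 d (medians 0.08 and 0.07). Of all genes, 3.2% were called at 0.5 d and 7.11% at 1 d. Ccnd2 was 12.1 ± 1.43 FPKM in Naïve, 5.68 ± 1.40 FPKM at Arrest 0.5 d and 4.48 ± 1.13 FPKM at Arrest 1 d, the latter a fall of 1.27 (SE 0.21, limma adjusted p = 0.000518). In Adr Ccnd2 was also below its Naïve mean, at 6.60 ± 2.15 FPKM at 0.5 d and 7.63 ± 2.72 FPKM at 1 d. None of the 6 genes of the BTG and TOB family was called. No library numbered 70 to 73 is in Arrest 0.5 d or Naïve, so leaving them out cannot move the differences of these lists at 0.5 d. The calls at 1 d were not kept without them, but 1 Arrest library was left there. That is too few to tell a lost difference from lost power. With 1 Arrest library left at 1 d, several differences stayed about as large, such as Jund (0.58 to 0.59), Socs3 (1.66 to 1.48), Dusp5 (0.88 to 1.03), Mef2c (-0.58 to -0.56) and Ccnd2 (-1.27 to -1.01). Those of Zfp36 (1.45 to -0.22), Klf4 (0.91 to 0.03) and Gadd45g (1.59 to 0.24) did not. With a term for those numbers, Ccnd2 alone was called at 1 d (limma adjusted p = 0.0228).

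Markers of other cells were read beside the members. The summed level of 8 neutrophil markers was 0 to 9.74 FPKM in Naïve, 3.60 to 32.2 FPKM at Arrest 0.5 d and 5.81 to 19.5 FPKM at Arrest 1 d. Single libraries of other groups reached as high. The highest were 32.8 FPKM in Adr 0.5 d (the rest 1.72 to 5.90), 32.2 FPKM in Adr 3 d replicate 3 (the rest 2.92 to 23.1) and 31.7 FPKM in Arrest 3 d (the rest 3.61 to 7.47). Ly6g was at 0 in all 37 libraries and Mpo in 32, and none of the 4 tested neutrophil genes was called against Naïve or between arms. The highest value of Arrest 0.5 d belonged to replicate 2, which had 9 members above every Naïve library and also had the highest endothelial sum of its group (314 FPKM against 186 to 209 FPKM). That library had the lowest macrophage sum of its group (477.5 FPKM against 612.3 to 689.3 FPKM). Its fibroblast sum was also the lowest (248.3 FPKM against 281.2 to 346.5 FPKM). The 9 macrophage markers summed to 430 to 715 FPKM in Naïve and 432 to 682 FPKM at Arrest 1 d. Within day 1 the libraries numbered 70 to 73 had macrophage sums of 432 to 631 FPKM and the others 409 to 833 FPKM, and mitochondrial shares of 22.5% to 27.3% and 21.6% to 25.7%. The summed cardiomyocyte markers did differ between them, at 13460 to 15160 FPKM in the numbers 70 to 73 and 10720 to 13240 FPKM in the others. Endothelial markers gave 1 lower at Arrest 0.5 d (3.2% of all genes called), and 1 higher and 2 lower at Arrest 1 d (7.11%), of 7. The smooth muscle and pericyte list gave 1 lower of 6 at Adr 1 d (0.627% of all genes called) and 1 lower at Arrest 1 d (7.11%). Atrial markers summed to 13.8 to 32.4 FPKM in Naïve and reached 693 FPKM in Adr 1 d replicate 2, one of the low libraries of that day. No cardiomyocyte, atrial, macrophage, fibroblast, red cell, lymphocyte, adipocyte or skeletal muscle marker was called against Naïve or between arms. The part of any of these in the results was not tested.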

How the data were processed

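LV RNA of 37 mice was sequenced as paired reads. Per the study's methods the authors aligned reads with HISAT2 and tested counts with DESeq2; the genome build, annotation, counter and strandedness are not given in the sources used here, so reads of overlapping antisense genes cannot be told apart. The deposited table holds FPKM values, normalized by the authors for gene length and depth. All of each library's values were whole multiples of 1 fragment (tolerance 0.02), giving the fragment totals. Files held 0 unmapped sample columns. Levels were put on the log2(FPKM + 1) scale, which understates changes of low genes, and 16579 genes were fitted in R 4.3.3 with limma 3.58.1, one mean per group, mean-variance trend, Benjamini-Hochberg adjustment over all genes tested and a threshold of 0.05. The authors' counts were not analysed here, so limma replaced their test. The authors left out 1 poor Adr 3 d sample without naming it, and all 4 were kept. The animals were separate mice. Each member's log2 difference is printed where it was called and otherwise for the Naïve comparison with the smallest p. The related lists were named by up to 4 genes of lowest adjusted p. Members, lists and tests were chosen with earlier results of these data known. The fit was checked on simulated data with independent genes and no split by library number, so that check does not cover the split of day 1. Exact permutation tests were two-sided on the log2 means. Figures used matplotlib.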

Additional observations from a re-analysis of the deposited data

Results flagged for a closer look

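Within-group extremes were checked in 90 groups of values (10 genes in 9 groups) with Dixon's 95% limit, and 16 (17.8%) passed. Chance gives about 1 in 20 for independent, normally distributed values, but these genes share libraries, and the same check over all tested genes passed 11.3% of groups. Of these, 5 belonged to Adr 1 d replicate 1, numbered 71, which was far above the rest of its group in Fos (20.5 FPKM against 1.01 to 3.54), Egr1 (52.65 against 2.13 to 2.95), Ier2 (63.1 against 13.5 to 19.9), Nr4a1 (48.5 against 2.83 to 5.76) and Btg2 (66.5 against 11.2 to 16.4). Another 3 belonged to Arrest 1 d replicate 4, numbered 95, which was far below its group in Fos (1.55 FPKM against 36.7 to 43.6), Egr1 (2.84 against 47.4 to 52.1) and Btg2 (15.04 against 86.4 to 98.3). Arrest 0.5 d replicate 2 was apart in Junb (62.6 FPKM against 21.2 to 22.8).

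At 3 d, Adr replicate 3 was apart in Fos (45.0 FPKM against 7.61 to 12.6) and Adr replicate 2 in Nr4a1 (14.1 FPKM against 31.7 to 34.5). At 7 d, Adr replicate 2 was apart in Fosb (3.98 FPKM against 0.401 to 0.985) and Atf3 (58.2 FPKM against 19.5 to 25.1), and Arrest replicate 4 in Egr1 (17.8 FPKM against 2.95 to 3.67). Egr1 was also apart in Naïve replicate 5 (11.3 FPKM against 2.63 to 5.01) and in Adr 0.5 d replicate 3 (10.1 FPKM against 3.04 to 3.89). The source of these values was not tested.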

How the results depend on the processing

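Counts of members called out of 10 are given against the values in the report. Arrest 0.5 d against Naïve (2) went to 0 with no filter, scaling by fragments, a gene length trend removed, the description number as covariate, the replicate block, or only the compared groups, and to 1 with quantile normalization or without the libraries numbered 70 to 73. Arrest 1 d against Naïve (3) went to 1 with no filter or only the compared groups, to 0 with the number as covariate, without the libraries numbered 70 to 73 or with a term for them, and to 6 with sample quality weights. Arrest 1 d against 7 d (1) went to 0 with no filter, quantile normalization, scaling by fragments, the length trend removed, the number as covariate, the replicate block, or either treatment of the numbers 70 to 73, and to 4 with quality weights. Arrest 0.5 d against 7 d (0) went to 1 with quality weights. The test over 9 groups (1) went to 0 with no filter, quantile normalization, scaling by fragments, the length trend removed, or without the numbers 70 to 73. A pseudocount of 0.1, a mean of at least 1 FPKM and sex as covariate moved no such count by over 1.5 times. The causes were not tested. The 2 treatments of the numbers 70 to 73 were chosen after seeing the data.

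Against Naïve at Arrest 1 d these 2 treatments (libraries left out, then a term) reversed Ier2 (-0.081 and -0.10), Fos (-0.88 and -0.51), Jun (-0.24 and -0.10), Egr1 (-0.59 and -0.69) and Btg2 (-0.68 and -0.55). Leaving out 1 library at a time gave 0 to 2 calls at Arrest 0.5 d (0 without Arrest replicate 1, 2 or 4 or Naïve replicate 1 or 4), 1 to 7 at Arrest 1 d (1 without Arrest replicate 1 or 3 or Naïve replicate 1 or 4, 7 without Arrest replicate 4), 0 to 4 for Arrest 1 d against 7 d (4 without Arrest 1 d replicate 4, 2 without Adr 3 d replicate 3, 0 without any other library of the 2 groups) and 0 to 3 over 9 groups (3 without Arrest 1 d replicate 4, 2 without Adr 1 d replicate 1 or Adr 3 d replicate 2 or 3). At Arrest 0.5 d Junb kept its call only without Naïve replicate 2 or Adr 3 d replicate 3. Without Arrest 1 d replicate 4 that group held only libraries numbered 70 to 73, so against Naïve or Arrest 7 d number and group cannot be told apart. Where a group was left with 1 library, it was assumed to vary like the others. Genes called over the whole table at Arrest 1 d against Naïve were 1179, and 5 without the numbers 70 to 73, 485 without Arrest replicate 3 and 1947 with quality weights; at Arrest 0.5 d they were 531, and 125 without Arrest replicate 2. Over the alternatives and left-out libraries the other such counts ran from 3 to 362 at Adr 0.5 d (31 in the report's fit), 0 to 415 at Adr 1 d (104), 0 to 186 at Arrest 3 d (23), 0 to 34 at Adr 3 d (0), 5 to 619 between Arrest 0.5 and 7 d (63), 4 to 1811 between Arrest 1 and 7 d (312), 0 to 239 between Adr 1 and 7 d (7), 0 to 288 between Adr 0.5 and 7 d (1), 3 to 591 for all intervened groups (327) and 151 to 1021 over 9 groups (645).

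Same-numbered replicates did not deviate together (median r 0.00156 over 144 pairs, 11 above 0.1, and 7 of 36 libraries closest to their own number), so the numbers were not taken to pair mice. With the replicate block, in which Naïve replicate 5 has a level of its own and drops out, Junb and Myc at Arrest 0.5 d gave adjusted p of 0.0753 and 0.0581 by limma. The lowest levels of Fosb rest on 7 to 14 fragments a library.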
